A study of Mus musculus with 6 samples.

Results

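The genes described here are the transcriptional repressors Hes1, Hes6, Hey1, Hey2 and Heyl, the feedback gene Nrarp and the Deltex genes Dtx1, Dtx2, Dtx3 and Dtx4. They were taken by symbol from count tables of 51826 gene symbols, all 10 were found, and all 10 passed the filter on low counts that left 13873 genes to test. The tables come from RNA-seq of mammary basal cells of C57B6/N mice with the genotype SMAcreERT2/N1ICD, in which a tamoxifen-inducible Cre is driven by the smooth muscle actin promoter beside an allele of the Notch1 intracellular domain. The mice received a single tamoxifen dose on day 21 after birth, and 72 hours passed before their cells were taken on day 24. Each of 3 pools of 2 to 3 mice was sorted by GFP into a positive fraction (GFPpos) and a negative fraction (GFPneg), which gave 3 libraries per group. Both fractions carry the same genotype and received tamoxifen, and no library comes from mice without the N1ICD allele. The labels do not say which construct carries GFP. A difference that followed recombination and one that was already there between the cells that became GFP-positive and the rest cannot be told apart.

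In Notch signalling, ligand binding leads to cleavage of the receptor by gamma-secretase, and the freed intracellular domain (N1ICD for Notch1) enters the nucleus, where it joins the DNA-binding protein RBPJ and a Mastermind coactivator. Hes and Hey genes are the best known direct targets of this complex and encode basic helix-loop-helix repressors, and Nrarp encodes a small ankyrin-repeat protein that limits the complex, as first shown in Xenopus. Deltex proteins are ubiquitin ligases, most of which bind the receptor, and are named after a Drosophila gene. In the mammary gland, Notch activity is known for its part in luminal cell fate.

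The libraries differed in depth. The GFPpos libraries held 10549065 to 15825199 gene counts, against 16043492 and 9912610 in GFPneg replicates 2 and 3 and 611465 in GFPneg replicate 1. In that shallow library 69.2% of gene counts lay in 5 abundant noncoding features (22.7% to 34.7% in the others). The 10 genes together had 38 counts there and between 1806 and 5294 in each other library. A gene with 0 counts could still lie at up to 9.84 CPM (gene counts scaled to a common effective library size) in GFPneg replicate 1, against at most 0.273 CPM in any other library (3 counts, counting error only). Results are therefore also given without it. The TMM scaling of edgeR gave that library a factor of 0.501, against 1.05 to 1.22 in the other libraries. Its CPM values are therefore higher than with scaling by library size alone. All 10 basal markers, among them Krt5, Krt14 and Acta2, were detected in every library, and 7 immune markers summed to at most 11.5 CPM.

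Promoter sequence from RefSeq (GRCm38.p6, 250 bases before to 50 after the start) was matched for 5 of the 10 genes, with 6 promoters in all. None was matched for Hes1, Hey1, Heyl, Dtx3 and Dtx4, which were therefore not searched. Both strands were searched for TGGGAA, the core of the sequence that RBPJ binds, and for the longer GTGGGAA, which contains it. Of the 6 promoters, 2 held TGGGAA, those of Hey2 and Dtx2, and 1 held GTGGGAA, that of Hey2. Among all 32851 promoters of this length, 25.6% held TGGGAA and 6.38% held GTGGGAA. The Hey2 promoter (chr10:30842734-30843033, minus strand) had GTGGGAA once on each strand, at bases 44 (reverse) and 247 (forward). The Dtx2 promoter (chr5:135994550-135994849, plus strand) had TGGGAA once, in reverse, at base 228. The Nrarp promoter (chr2:25180508-25180807, plus strand) belongs to the gene with the largest fold change of the 10 and had neither string. These 3 are shown 5′ to 3′, with the matched bases in capitals.
Hey2: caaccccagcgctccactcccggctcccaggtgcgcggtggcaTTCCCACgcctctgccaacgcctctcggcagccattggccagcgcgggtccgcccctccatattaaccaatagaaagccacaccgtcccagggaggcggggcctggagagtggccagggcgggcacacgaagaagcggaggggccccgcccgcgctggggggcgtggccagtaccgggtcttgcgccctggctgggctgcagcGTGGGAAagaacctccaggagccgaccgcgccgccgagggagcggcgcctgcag
Dtx2: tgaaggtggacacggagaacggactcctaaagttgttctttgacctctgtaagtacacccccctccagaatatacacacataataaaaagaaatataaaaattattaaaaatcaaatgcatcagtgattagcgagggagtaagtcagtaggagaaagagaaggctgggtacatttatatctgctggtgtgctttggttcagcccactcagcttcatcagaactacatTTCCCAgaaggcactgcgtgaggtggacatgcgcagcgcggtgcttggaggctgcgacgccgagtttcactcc
Nrarp: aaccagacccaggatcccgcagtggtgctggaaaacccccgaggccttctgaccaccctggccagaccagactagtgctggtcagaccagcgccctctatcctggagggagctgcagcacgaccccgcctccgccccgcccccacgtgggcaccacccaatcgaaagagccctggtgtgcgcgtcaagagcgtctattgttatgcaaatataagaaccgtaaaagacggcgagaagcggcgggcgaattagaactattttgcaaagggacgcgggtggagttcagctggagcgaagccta
A match is a string in this window and not a binding site, and the promoters of Hes6 and Dtx1, also searched, had neither string.

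In GFPpos cells Nrarp and Hes1 were higher in each of the 3 pairs, without overlap between the groups, and Dtx3 was lower in each pair, also with no overlap. For Dtx3 the groups overlapped when libraries were scaled by size only. Heyl and Hey2 had higher values in each pair too, but their groups overlapped. Hes6, Hey1 and Dtx2 went different ways in different pairs. Dtx4 was lower in replicate 3, had a ratio near 1 in replicate 2 and gave no detectable difference in replicate 1. None of the 10 genes passed edgeR's quasi-likelihood test over all 13873 genes (Benjamini-Hochberg adjusted p below 0.05). That test called 8 genes higher (0.0577%) and 1 lower (0.00721%) in GFPpos cells. At an unadjusted p below 0.05, 2 of the 10 passed, Nrarp and Hes1, both higher, against 2.38% of all tested genes higher and 2.88% lower. DESeq2 called 1 of the 10, Nrarp, beside 50 genes higher (0.393%) and 48 lower (0.378%) in all, and limma-voom called 0 beside 54 higher (0.389%) and 24 lower (0.173%). With the replicate number as a block, edgeR called 0 of the 10, beside 43 genes higher (0.31%) and 18 lower (0.13%). Without GFPneg replicate 1 it called 1, Nrarp, beside 63 genes higher (0.412%) and 29 lower (0.19%). Genes of the 10 were also called higher in 3 further fits. These were DESeq2 with the block (1 of 10, Nrarp, against 0.742% of all genes), edgeR on genes with at least 1 read (2 of 10, Nrarp and Hes1, against 0.263%) and edgeR with the block on replicates 2 and 3 alone (the same 2 of 10, against 2.52%). Groups without overlap were found for 9.53% of tested genes in the higher direction and 3.63% in the lower. A value higher in GFPpos of all 3 pairs was found for 21.5% and a lower one for 8.07%. The 4 genes higher in all pairs and the 2 lower in all pairs are read against those shares, and for Hey2 the count of all 3 pairs includes 1 pair in which a difference was not detectable. Of the 10 log2 fold changes 7 were positive, against 57.5% of all tested genes. Their median was 0.63, and that of all tested genes 0.15.

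**Figure D1:**
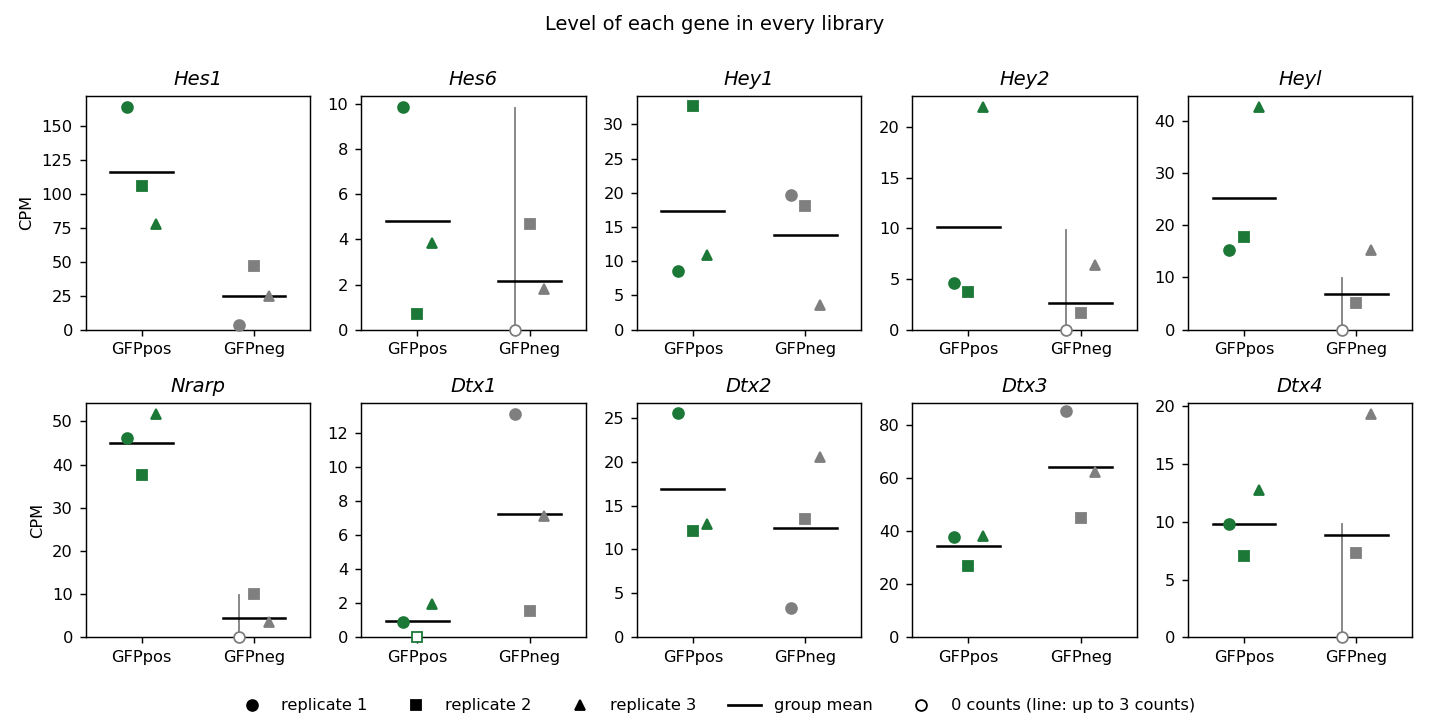
CPM (counts scaled to a common effective library size) of each gene in the 3 GFPpos and 3 GFPneg libraries, with markers for the replicate, a bar for the group mean and an open marker with a line up to 3 counts where a library had 0 counts. Nrarp (37.6 to 51.6 against 0 to 9.91 CPM), Hes1 (77.9 to 164 against 3.28 to 47.1 CPM) and Dtx3 (27.0 to 38.2 against 44.9 to 85.2 CPM) are the genes whose groups do not overlap. The Dtx3 groups overlap when libraries are scaled by size only.

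Hes1 (ENSMUSG00000022528.8, chromosome 16, 30064384 to 30067796, plus strand, mm10) encodes the repressor most often used as a readout of Notch activity. Its level was 164, 106 and 77.9 CPM in GFPpos replicates 1, 2 and 3, against 3.28, 47.1 and 24.7 CPM in GFPneg replicates 1, 2 and 3. The lowest GFPpos library lay above the highest GFPneg library. The GFPpos over GFPneg ratio was 2.24 (95% exact interval 2.06 to 2.44) in replicate 2 and 3.16 (2.77 to 3.60) in replicate 3. In replicate 1 it was 50.2 (8.99 to 1982), where GFPneg had 1 count. The intervals here and below cover counting error only. The log2 fold change was 2.06 (SE 0.63, adjusted p = 0.573 in edgeR's quasi-likelihood test). Without GFPneg replicate 1 it was 1.70 (SE 0.40, adjusted p = 0.103 in the same test), so that shallow library moved the size and not the direction.

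Nrarp (ENSMUSG00000078202.3, chromosome 2, 25180758 to 25183339, plus strand) had 46.1, 37.6 and 51.6 CPM in GFPpos replicates 1, 2 and 3, against 0, 9.91 and 3.46 CPM in GFPneg replicates 1, 2 and 3. The GFPpos values lay close together (45.1 ± 7.09 CPM against 4.46 ± 5.03 CPM in GFPneg, SD, n = 3 each), and every GFPpos library was above every GFPneg one. The ratio was 3.79 (3.20 to 4.51) in replicate 2 and 14.9 (10.8 to 21.2) in replicate 3. In replicate 1 GFPpos cells were at least 4.69-fold higher, taking 3 counts for the 0 counts of GFPneg. The log2 fold change, 3.01 (SE 0.80, adjusted p = 0.392 in edgeR), had the 67th smallest p of all tested genes. Nrarp passed the threshold without GFPneg replicate 1, at 2.75 (SE 0.52, adjusted p = 0.0400 in edgeR, with 63 genes or 0.412% called higher in that fit), and in DESeq2 on all 6 libraries at 3.01 (adjusted p = 0.0120). Of its merged exon length of 2582 bases, 2051 overlap Gm38287, an antisense transcript that had 0 to 8 counts per library. Whether counting used strand is not given, so the level of Nrarp relative to other genes is uncertain.

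Summed markers of luminal epithelium, like Hes1 and Nrarp, were higher in every GFPpos library than in any GFPneg library. For the luminal sum that separation depended on 1 gene, Kit. The 12 luminal markers, among them Krt8 and Krt18, summed to 973, 839 and 665 CPM in GFPpos replicates 1, 2 and 3, against 239, 515 and 539 CPM in GFPneg replicates 1, 2 and 3. Of their log2 fold changes 10 were positive and 2 negative, those of Elf5 and Foxa1. The groups did not overlap for Krt19, Kit, Esr1, Cldn3 and Cldn7. They overlapped for the rest, among them Krt8, Krt18 and Epcam (in replicate 3, 100, 92.6 and 202 CPM in GFPpos against 109, 108 and 263 CPM in GFPneg). The 10 basal markers summed to 8032, 7026 and 6726 CPM in GFPpos, against 8876, 13946 and 11821 CPM in GFPneg. The basal sum was lower in every GFPpos library than in any GFPneg library, but that separation depended on Myh11 and on the scaling of GFPneg replicate 1. Scaled by library size only, the basal sum of GFPneg replicate 1 lay below that of every GFPpos library. Of the 10 basal log2 fold changes 9 were negative, and that of Krt17 was positive (0.39). Acta2 had 367 CPM in GFPneg replicate 1, below its 1143 to 1380 CPM in GFPpos. With all 6 libraries, edgeR called 0 of the 12 and 0 of the 10 genes. Without GFPneg replicate 1 it called 1 of the 12 higher, the receptor gene Kit (log2 fold change 3.72, adjusted p = 0.00523), and 1 of the 10 lower, the smooth muscle gene Cnn1 (-1.57, adjusted p = 0.0158). Kit was also called with the replicate block on all 6 libraries (3.46, adjusted p = 0.00358 in edgeR), and in DESeq2 (adjusted p = 0.000198) and limma-voom (adjusted p = 0.0127). All 12 luminal markers were detected in the other 5 libraries and 4 of the 12 in GFPneg replicate 1. In bulk RNA, fewer cells of a type and less RNA per cell cannot be told apart, and the part of luminal cells in the Hes1 and Nrarp values was not tested.

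Heyl (chromosome 4, 123233556 to 123249875, plus strand), a Hey repressor gene known for expression in vascular smooth muscle and pericytes, had 15.2, 17.7 and 42.7 CPM in GFPpos replicates 1, 2 and 3, against 0, 5.03 and 15.3 CPM in GFPneg replicates 1, 2 and 3. The highest GFPneg value was just above the lowest GFPpos value, and GFPpos replicate 3 stood well above the other GFPpos libraries. The ratio was 3.53 (2.77 to 4.52) in replicate 2 and 2.79 (2.36 to 3.31) in replicate 3, and GFPpos cells of replicate 1 were at least 1.55-fold higher. Heyl had a log2 fold change of 1.65 (SE 0.90, adjusted p = 1 in edgeR). It was 1.34 without GFPneg replicate 1, and over all single left-out libraries it lay between 1.08 without GFPpos replicate 3 and 2.75 without GFPneg replicate 3.

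Hey2 (chromosome 10, 30832359 to 30842801, minus strand), a Hey repressor gene known from arterial endothelium and the heart, had 4.62, 3.73 and 22.0 CPM in GFPpos replicates 1, 2 and 3, against 0, 1.64 and 6.38 CPM in GFPneg replicates 1, 2 and 3. GFPpos replicate 3 was the highest of the 6 libraries, and GFPneg replicate 3 lay above the other GFPpos libraries. The ratio was 2.27 (1.42 to 3.67) in replicate 2 and 3.45 (2.67 to 4.51) in replicate 3. In replicate 1 the GFPpos value was under the 9.84 CPM that 0 counts in GFPneg allow, so a difference was not detectable at this depth. The log2 fold change was 1.61 (SE 1.15, adjusted p = 1 in edgeR) with all libraries and 1.37 without GFPneg replicate 1. It moved both ways with replicate 3, to 0.40 (SE 1.61) without the GFPpos library and to 2.89 (SE 1.53) without the GFPneg library.

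The summed pericyte and endothelial markers were highest in the library in which Heyl and Hey2 were highest. The 9 pericyte markers summed to 278, 194 and 566 CPM in GFPpos replicates 1, 2 and 3, against 16.4, 155 and 170 CPM in GFPneg replicates 1, 2 and 3. The 10 endothelial markers summed to 910, 783 and 2276 CPM in GFPpos, against 1584, 854 and 632 CPM in GFPneg. GFPpos replicate 3 was the highest library for both lists, and the endothelial sum, unlike Heyl and Hey2, was next highest in GFPneg replicate 1. In GFPpos replicate 3, Pecam1 (981 CPM) and Cdh5 (644 CPM) made up most of the endothelial sum. Kdr, Tek, Erg and Egfl7 were highest in a GFPneg library, and the pericyte markers Mcam and Abcc9 in another GFPpos library. The other genes of both lists were highest in GFPpos replicate 3. Hes1 was lowest among GFPpos libraries in replicate 3. Among pericyte markers Rgs5 stood at 38.8, 23.7 and 164 CPM in GFPpos, against 0, 27.2 and 29.5 CPM in GFPneg, while Kcnj8 was at 0 counts in 4 of the 6 libraries. In GFPneg replicate 1, 8 of the 9 pericyte markers were at 0 counts. The 6 arterial markers summed to 46.3, 40.8 and 78.1 CPM in GFPpos, against 623, 194 and 131 CPM in GFPneg. Nrp1 made up much of that sum, at 9.24, 18.9 and 29.0 CPM in GFPpos against 508, 116 and 64.5 CPM in GFPneg, while the groups overlapped for Gja4, Gja5, Sox17 and Bmx. The part of vessel cells in the Heyl and Hey2 values was not tested.

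**Figure D2:**
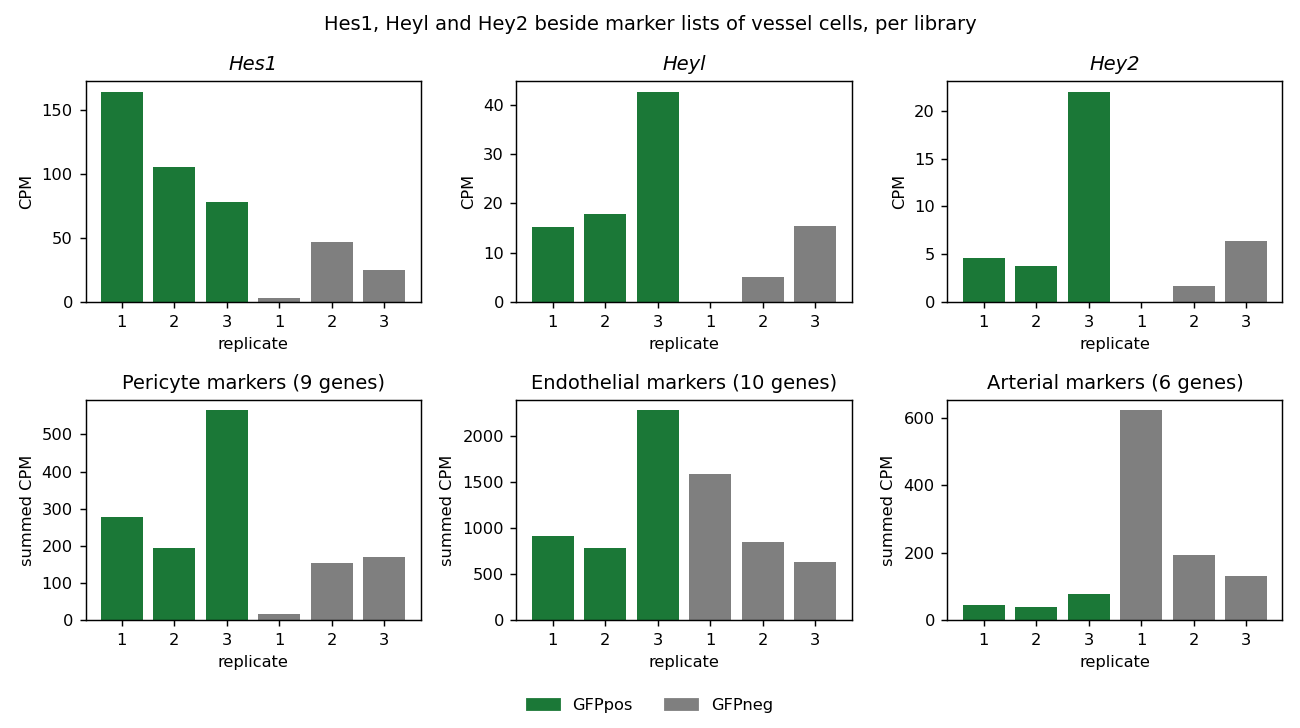
CPM of Hes1, Heyl and Hey2 (upper row) and summed CPM of pericyte, endothelial and arterial marker lists (lower row) in GFPpos replicates 1 to 3 and GFPneg replicates 1 to 3. Heyl (42.7 CPM), Hey2 (22.0 CPM), pericyte markers (566 CPM) and endothelial markers (2276 CPM) are each highest in GFPpos replicate 3, where Hes1 (77.9 CPM) is the lowest of the GFPpos libraries.

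Hey1 (chromosome 3, 8663359 to 8667256, minus strand), another Hey repressor gene, had 8.52, 32.8 and 10.9 CPM in GFPpos replicates 1, 2 and 3, against 19.7, 18.0 and 3.64 CPM in GFPneg replicates 1, 2 and 3. Its groups overlapped throughout, with a ratio of 1.82 (1.57 to 2.10) in replicate 2, 2.99 (2.12 to 4.31) in replicate 3 and 0.433 (0.192 to 1.21) in replicate 1, where GFPneg had 6 counts. A log2 fold change of 0.42 (SE 0.90, adjusted p = 1 in edgeR) turned negative without GFPpos replicate 2 (-0.45) or GFPneg replicate 3 (-0.10).

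Hes6 (chromosome 1, 91411483 to 91414038, minus strand) encodes a Hes family member that in mouse neurons opposes Hes1. It had 9.88, 0.700 and 3.84 CPM in GFPpos replicates 1, 2 and 3, against 0, 4.67 and 1.82 CPM in GFPneg replicates 1, 2 and 3. GFPpos cells were lower in replicate 2 (ratio 0.150, 0.0664 to 0.297) and higher in replicate 3 (2.11, 1.27 to 3.65). The log2 fold change of 0.85 had an SE of 1.34 (adjusted p = 1 in edgeR), and without GFPpos replicate 1 it was -0.18.

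The Deltex genes Dtx1, Dtx3 and Dtx4 held the only negative fold changes of the 10, and that of Dtx4 was positive when libraries were scaled by size only (0.071). Dtx3 (ENSMUSG00000040415.15, chromosome 10, 127190378 to 127195728, minus strand), whose product lacks the receptor-binding part of the other 3 Deltex proteins, had 37.9, 27.0 and 38.2 CPM in GFPpos replicates 1, 2 and 3, against 85.2, 44.9 and 62.3 CPM in GFPneg replicates 1, 2 and 3. With TMM scaling every GFPpos library was below every GFPneg one. The ratio was close in the 3 pairs, at 0.444 (0.299 to 0.688), 0.602 (0.530 to 0.682) and 0.613 (0.552 to 0.681) in replicates 1, 2 and 3. Both rest on the TMM factor of GFPneg replicate 1 (0.501). Scaled by library size only, GFPpos replicate 3 lay above GFPneg replicate 1, and the replicate 1 interval included 1. The log2 fold change was then -0.51 (SE 0.71). The group values were 34.4 ± 6.38 CPM in GFPpos and 64.1 ± 20.3 CPM in GFPneg (SD, n = 3 each), and the log2 fold change was -0.87 (SE 0.53, adjusted p = 1 in edgeR). Without GFPneg replicate 1 it was -0.62 (SE 0.34, adjusted p = 0.684 in edgeR).

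Dtx1 (chromosome 5, 120680202 to 120711927, minus strand), the family member known as a Notch target in lymphocytes, was scarce. It had 0.906, 0 and 1.97 CPM in GFPpos replicates 1, 2 and 3, against 13.1, 1.54 and 7.11 CPM in GFPneg replicates 1, 2 and 3. The GFPpos value was below its GFPneg partner in each pair, although GFPpos replicate 3 lay above GFPneg replicate 2. The counts were 48 in all GFPpos libraries and 112 in all GFPneg libraries. In replicate 2 GFPpos cells had 0 counts and GFPneg cells 30, at least 6.60-fold lower in GFPpos against 3 counts. The fitted log2 fold change was -2.75 (SE 1.63, adjusted p = 1 in edgeR), and -2.13 without GFPneg replicate 1, where 4 counts stood for 13.1 CPM. Summed markers of fibroblasts were lower in each GFPpos library than in any GFPneg library. The 7 fibroblast markers summed to 47.4, 39.7 and 100.2 CPM in GFPpos, against 387, 146 and 212 CPM in GFPneg. That separation depended on Dcn, at 0, 60.9 and 7.84 CPM in GFPneg replicates 1, 2 and 3. All 5 tested fibroblast genes had negative log2 fold changes, and the groups overlapped for each. The 6 Schwann cell markers also separated, at 122, 144 and 90.7 CPM in GFPpos against 875, 166 and 327 CPM in GFPneg. Of 4 tested Schwann cell genes 3 had negative fold changes and 1 a positive one. Lum, a fibroblast marker, was at 0 counts in every library. The part of fibroblasts or Schwann cells in the Deltex values was not tested.

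Dtx2 (chromosome 5, 135994800 to 136032872, plus strand) had 25.6, 12.1 and 12.9 CPM in GFPpos replicates 1, 2 and 3, against 3.28, 13.4 and 20.5 CPM in GFPneg replicates 1, 2 and 3. Dtx4 (chromosome 19, 12466338 to 12501454, minus strand) had 9.79, 7.003 and 12.7 CPM in GFPpos, against 0, 7.29 and 19.3 CPM in GFPneg. The groups overlapped for both genes, which like Dtx1 encode ubiquitin ligases with the receptor-binding part. In replicate 3 GFPpos cells were lower for both, with ratios of 0.631 (0.524 to 0.758) for Dtx2 and 0.658 (0.546 to 0.795) for Dtx4, and in replicate 2 both intervals included 1. In replicate 1 the Dtx2 ratio was 7.79 (1.39 to 309), with 1 count in GFPneg, and a difference in Dtx4 was not detectable at this depth. The log2 fold changes were 0.31 (SE 0.81) for Dtx2 and -0.04 (SE 0.97) for Dtx4 (adjusted p = 1 for both in edgeR). Without GFPneg replicate 1 they were 0.01 and -0.41.

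**Figure D3:**
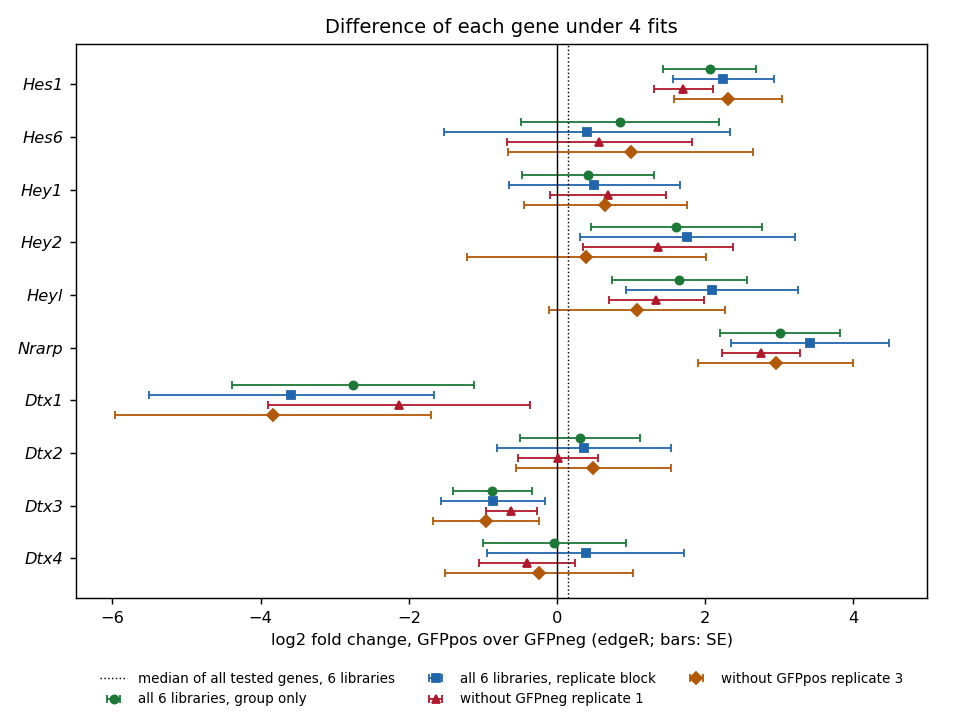
Log2 fold change of GFPpos over GFPneg (x axis) with its SE for each gene (y axis) in edgeR with all 6 libraries, with the replicate block, without GFPneg replicate 1 and without GFPpos replicate 3; the dotted line is the median of all tested genes. Only Dtx4 changes sign among the 4 fits (-0.04 with all 6 libraries and 0.39 with the block). Dtx1 (-2.75) and Dtx3 (-0.87) stay negative. The other genes stay positive, with Nrarp (3.01) and Hes1 (2.06) the largest, while Hey2 drops to 0.40 without GFPpos replicate 3.

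Levels were compared between genes as CPM per kilobase of merged exon length. In GFPpos cells Hes1 ranked highest at 57.0 ± 21.7, Nrarp next at 17.5 ± 2.74 and Dtx3 after it at 13.4 ± 2.48 CPM per kb (SD, n = 3), in that order in each of the 3 libraries. The lowest Hes1 value (38.2) was above the highest Nrarp value (20.0), whereas Nrarp (14.6 to 20.0) and Dtx3 (10.5 to 14.9) overlapped. Dtx3 lay above the next gene, Hey1 (2.61 to 10.03). Below it, Heyl, Hes6, Dtx2, Hey2 and Dtx4 followed with means of 4.93 to 1.88 CPM per kb, and neighbours in that order overlapped. Dtx1 (0 to 0.374) was below the lowest Dtx4 value (1.34). In GFPneg cells Dtx3 ranked highest at 24.9 ± 7.87 and Hes1 next at 12.3 ± 10.8 CPM per kb, though Hes1 led in GFPneg replicate 2 (23.1 against 17.4). Nrarp was at rank 5 there, at 1.73 ± 1.95 CPM per kb, with the limit on its counts given above.

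**Figure D4:**
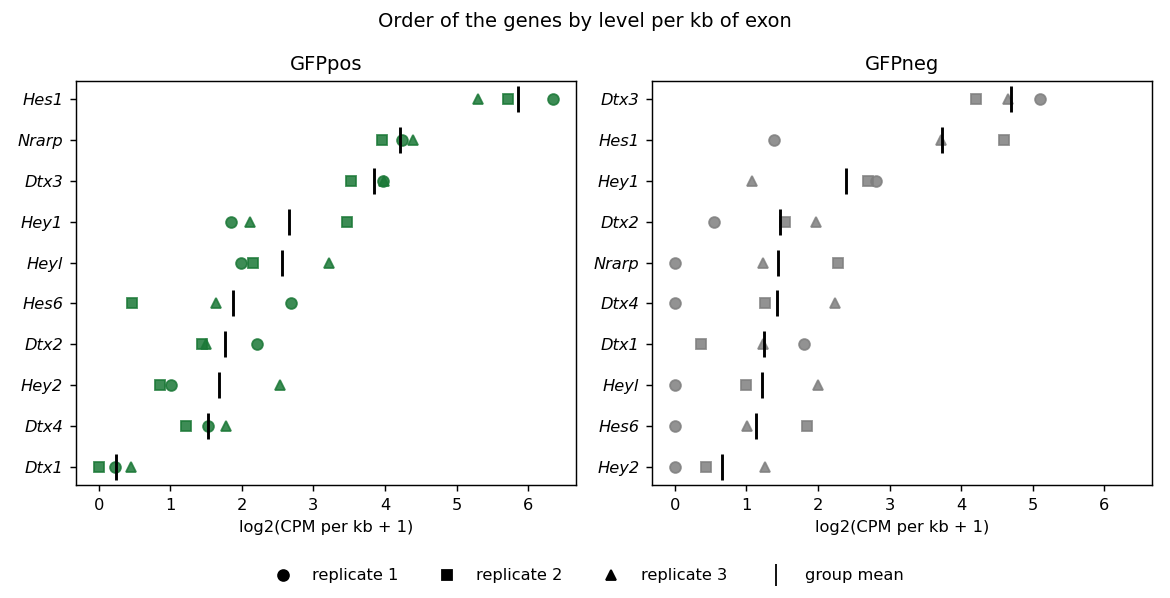
Level of the 10 genes as log2(CPM per kb of merged exon + 1) on the x axis, ordered down the y axis by group mean, in GFPpos (left) and GFPneg (right) cells; symbols are replicates and ticks the group mean. Hes1 and Nrarp lead in GFPpos cells (57.0 and 17.5 CPM per kb) and Dtx3 leads in GFPneg cells (24.9 CPM per kb).

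Of 63 other genes of the pathway in 8 lists, 52 were tested, and edgeR called 1 higher and 0 lower in GFPpos cells. Their median log2 fold change was 0.06, with 30 positive and 22 negative, beside 0.15 for all tested genes. The gene called was Ccnd1, which encodes cyclin D1 and has been reported as a Notch target, at 417, 472 and 439 CPM in GFPpos against 72.1, 61.2 and 27.1 CPM in GFPneg replicates 1, 2 and 3 (log2 fold change 3.09, SE 0.46, adjusted p = 0.0181 in edgeR). It missed the threshold in the same test without GFPpos replicate 3 (adjusted p = 0.0577) or GFPneg replicate 2 (0.0816), and with upper quartile (0.0855) or library size scaling (0.0504). Over the 20 alternatives the count among the 63 genes was 0 to 3 higher and 0 to 3 lower. It was 2 higher in limma-voom and in DESeq2 with the replicate block, where Notch3 joined Ccnd1 (adjusted p = 0.0431 and 0.0326). Notch3 also passed in edgeR with no low count filter (adjusted p = 0.0103), and limma-voom with quality weights called Notch1 beside Ccnd1 (adjusted p = 0.0487). The replicate block fit on replicates 2 and 3 alone called Ccnd1, Notch1 and Notch3 higher and Jag2, Notch4 and Snai2 lower. Among receptors 0 of 4 passed with all 6 libraries in edgeR. Notch1, whose intracellular domain the allele encodes, had 506, 459 and 423 CPM in GFPpos against 105, 177 and 267 CPM in GFPneg, and the table has 1 row for Notch1, which does not separate the allele from the endogenous gene. Notch3, a receptor prominent in pericytes, had 155, 101 and 279 CPM against 42.6, 21.7 and 61.5 CPM, and like Heyl it was highest in GFPpos replicate 3. Notch4, an endothelial receptor, was at 3.53, 5.21 and 3.63 CPM in GFPpos against 3.28, 40.7 and 20.3 CPM in GFPneg (log2 fold change -2.47, SE 0.91, adjusted p = 0.738 in edgeR). Without GFPneg replicate 1, Notch4 passed as lower (-2.87, SE 0.56, adjusted p = 0.0475 in edgeR). Notch2, more evenly expressed, had 102 ± 32.1 CPM in GFPpos, against 76.2 ± 25.7 CPM in GFPneg (SD, n = 3 each).

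Among nuclear complex and gamma-secretase genes 0 of 13 tested genes passed. Rbpj, the DNA-binding partner of the intracellular domain, had 2.36, 20.8 and 16.4 CPM in GFPpos replicates 1, 2 and 3, against 72.1, 25.2 and 50.2 CPM in GFPneg replicates 1, 2 and 3. Its groups did not overlap, and the log2 fold change was -1.86 (SE 0.79, adjusted p = 0.850 in edgeR). Maml2, a Mastermind coactivator gene, had 90.8 ± 11.7 CPM in GFPpos, against 157 ± 39.3 CPM in GFPneg (SD, n = 3 each). Aph1b, a gamma-secretase subunit gene, had 0.725, 1.79 and 0.831 CPM in GFPpos replicates 1, 2 and 3, against 23.0, 3.85 and 6.29 CPM in GFPneg replicates 1, 2 and 3. Of 5 tested ligand genes 0 passed with all 6 libraries, with Jag2 at 91.5 ± 6.20 CPM in GFPpos against 189 ± 50.3 CPM in GFPneg, Dll1 at 142 ± 32.2 against 191 ± 133 CPM, and the atypical ligand gene Dlk2 at 1.06 ± 1.09 against 4.53 ± 6.77 CPM. Of 14 tested genes that modify ligands and receptors 0 passed, among them the protease gene Adam10 (log2 fold change 0.96), the glycosyltransferase gene Mfng (1.02) and Numbl, related to the inhibitor Numb (-0.65).

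Other Hes genes were close to absent. Hes2 and Hes3 had 0 counts in every library, Hes5 had 5 counts and Helt 1 count, each in GFPpos replicate 2, and Hes7 had 2 counts in GFPneg replicate 2. The related repressor genes Bhlhe40 (406 ± 53.6 CPM in GFPpos and 439 ± 118 CPM in GFPneg) and Bhlhe41 (118 ± 70.7 and 93.6 ± 33.4 CPM) were expressed in both fractions (SD, n = 3 each). Groucho corepressor genes, whose products bind Hes proteins, had a median log2 fold change of 0.12 over 6 tested genes with 0 called, among them Aes (0.52), Tle6 (0.60) and Tle2 (-0.25). Dtx3l, a relative of Dtx3, had 39.5 ± 10.2 CPM in GFPpos, against 39.7 ± 26.5 CPM in GFPneg, and its partner gene Parp9 27.4 ± 12.1 and 12.1 ± 8.52 CPM. The transcription factor gene Snai2 and the ephrin gene Efnb2, further reported Notch targets, had log2 fold changes of -1.06 and -0.69 and were not called in edgeR with all 6 libraries.

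Genes whose level ran most like each of the 10 were found by Pearson's r of log2(CPM + 1) over the 6 libraries, among 9392 tested genes with a mean of at least 5 CPM. The 3 closest to each had r between 0.961 and 0.999, and between 0.954 and 0.997 without GFPneg replicate 1. These genes were picked for the highest r of 9392, so high values follow from that choice. The r without GFPneg replicate 1 reuses the other libraries and is no separate check. All points share the library depth and the pair, and 9 of the 30 closest genes also had 0 counts in GFPneg replicate 1. Closest to Nrarp were Cep152, Fam114a1 and Cldn7, with Cldn7 among the 12 luminal markers, and closest to Hes1 were Spc24, Taf6l and Slc22a5. Fam81a, Eif4g1 and Wsb2 ran closest to Heyl, and Arsa, Fnbp1 and Ebf1 to Hey2. For Dtx3 they were Vash2, Stard8 and Zfp639, and for Dtx1 Leng8, Chka and Cyp4f17. Hey1 ran with Atad1, Glyr1 and Rcan3, and Hes6 with Vwa5a, Depdc5 and Fdft1. Dtx2 ran with Atg4d, Papolg and Fubp3, and Dtx4 with Anxa11, Crtc1 and Bcl9l.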

How the data were processed

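The authors deposited raw read counts for 51826 gene symbols in each of 6 libraries, with 5 summary rows that were left out here. The submitters' processing notes name FastQC, cutadapt, TopHat2, HTSeq and mm10. Tool versions, the strand setting and the annotation release: not given in the sources used here. Reads in no feature made up 28.8% to 66.4% of a library and ambiguous ones 0.390% to 2.07%. The main test was the quasi-likelihood F test of edgeR 4.0.16 (R 4.3.3) with TMM scaling, the filterByExpr filter and no covariate beside group. P-values were adjusted over all tested genes by Benjamini-Hochberg, with a threshold of 0.05. The SE is the unshrunk log2 fold change divided by the square root of F. Gene positions and merged exon lengths come from GENCODE M21 on mm10. Alternatives were DESeq2 1.42.0, limma 3.58.1 (voom), other scalings and filters, and left-out libraries.

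By the design text, both fractions of a replicate come from 1 pool of mice, so the numbers pair the libraries. Same-numbered libraries had deviations from their group means that correlated at r = -0.0361 (replicate 1), 0.122 (replicate 2) and -0.00126 (replicate 3). P-values of the main test measure the spread between pools within each fraction, shared in part across genes. Block fits measure instead the spread of the differences between paired fractions. In edgeR with the block or with no low count filter, p closely matched a normal test of fold change over SE. Those p-values hardly use a gene's own spread over pools. The edgeR calls of Hes1 and some of those of Nrarp came from these fits. The genes, lists and alternatives were chosen with earlier results of these data known. Named beside the 10 genes were Notch1 to Notch4, Rbpj, up to 3 genes of each pathway list with the smallest p, and the 3 genes most like each of the 10. The other Hes genes, single marker genes (Kit, Cnn1 and Nrp1 among them) and Gm38287 were named after their values were seen.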

Additional observations from a re-analysis of the deposited data

How the results depend on the processing

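None of the 10 genes was called lower in any of the 20 alternatives, and the count called higher, 0 with all 6 libraries in edgeR, was 1 in DESeq2 (block or not), 2 where low counts were not filtered and 2 in a replicate block fit on replicates 2 and 3 alone. Leaving out 1 library or 1 pair gave 0 to 1, and the 1 was Nrarp without GFPneg replicate 1. The block fit on 2 pairs gave Nrarp an adjusted p of 1.51e-05 and Hes1 0.00399 in edgeR, beside 386 genes called higher and 216 lower. With only 2 pairs, those p-values hardly reflect a gene's own spread between pools. The replicate block on all 6 libraries changed no call among the 10. Over all genes, the 8 higher and 1 lower became 50 and 48 in DESeq2, 43 and 18 with the replicate block, 91 and 61 in DESeq2 with the block, 54 and 24 in limma-voom, 46 and 26 with quality weights, 65 and 236 with no low count filter, 2 and 1 with upper quartile factors and 5 and 1 with library size only. Leaving out libraries gave 2 to 63 higher and 1 to 68 lower. Dropping GFPpos replicates 1, 2 and 3 in turn gave 5, 7 and 2 higher and 1, 4 and 1 lower, and dropping GFPneg replicates 1, 2 and 3 in turn gave 63, 3 and 8 higher and 29, 3 and 11 lower. Hes1, Hey2, Heyl and Nrarp stayed positive and Dtx1 and Dtx3 negative in all 20 alternatives. Hes6 turned negative with quality weights (-0.74) and in the 2-pair block fit (-0.78), and ranged from -0.50 to 2.32 over left-out libraries or pairs. Hey1 ranged from -0.45 to 1.02 and Dtx2 from -0.42 to 1.00 there, and Dtx2 was -0.39 in the 2-pair block fit. Dtx4 turned positive with the replicate block (0.39), in DESeq2 with the block (0.35), with library size only (0.071) and with no filter on low counts (0.00021), and ranged from -0.41 to 0.99 over left-out libraries or pairs. The cause of these turns was not tested. Scaling by upper quartile moved the median log2 fold change of all genes by -0.12 and library size only by 0.16. Relative to that median, Nrarp lay between 2.79 and 2.89, Hes1 between 1.80 and 1.97, Dtx3 between -1.13 and -0.82 and Dtx4 between -0.24 and -0.14 under the 4 scalings. Depth limits Hes6, Hey2, Heyl, Nrarp and Dtx4 in replicate 1, where GFPneg had 0 counts.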

Other observations

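Ratios of counts within a library do not depend on how libraries are scaled. The count ratio of Nrarp to Hes1 was 0.280, 0.356 and 0.663 in GFPpos replicates 1, 2 and 3, against 0.210 and 0.140 in GFPneg replicates 2 and 3, where GFPneg replicate 1 had 0 counts of Nrarp and 1 of Hes1. The GFPpos values were above both GFPneg values. The ratio of Dtx3 to Hes1 was 0.230, 0.256 and 0.490 in GFPpos, against 26, 0.952 and 2.52 in GFPneg replicates 1, 2 and 3. The value of 26 rests on 1 count of Hes1. These groups could not overlap, because Dtx3 was lower and Hes1 higher in every GFPpos library, so the ratio is no separate result. The ratio of Heyl to Hes1 followed the replicate more than the group, at 0.0926, 0.168 and 0.548 in GFPpos and 0.107 and 0.620 in GFPneg replicates 2 and 3. Hey2 to Hes1 did likewise, at 0.0281, 0.0353 and 0.282 in GFPpos and 0.0349 and 0.258 in GFPneg replicates 2 and 3. These ratios were chosen after the values were seen and carry no test.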
